A study of Mus musculus with 12 samples.

Results

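Glucose uptake, glycolysis and lactate export were followed through 10 genes in 2 sorted cell fractions of the mouse hippocampus. The genes were a listed set, matched by symbol to Ensembl mouse identifiers, and all 10 were found among the 25442 genes present in the count tables of both fractions. They are Slc2a1 (glucose uptake), Hk1 and Hk2 (hexokinases), Pfkp (phosphofructokinase), Aldoc (aldolase), Pkm (pyruvate kinase), Ldha and Ldhb (lactate dehydrogenase), Slc16a1 (lactate transport) and Pygb (glycogen phosphorylase). All 10 passed the filter on low counts in every comparison.

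Glucose enters brain cells through facilitative transporters and is trapped by hexokinase as glucose 6-phosphate. Phosphofructokinase commits the sugar to glycolysis, aldolase splits it, and pyruvate kinase makes pyruvate, which lactate dehydrogenase converts to and from lactate. Astrocytes hold most of the brain's glycogen and are known for glycolysis and for the release of lactate through monocarboxylate transporters, whereas microglia are known to raise hexokinase 2 and glycolysis when they are activated.

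The animals were male C57Bl6/J mice injected in the hippocampal CA1 region at 2 months of age and studied 2 months later. Both vectors were AAV2/9 with the GfaABC1D promoter, a short GFAP promoter used to restrict expression to astrocytes. One vector carried the mouse adenosine A2A receptor (A2AR, gene Adora2a) and is called AAV-A2A, and the other carried GFP and is called AAV-GFP. Control animals therefore also received an injection, a virus and a foreign protein. Cells were separated with magnetic beads, first with beads against ACSA-2, an astrocyte surface antigen, and then, from the cells that had not bound, with beads against CD11b, a surface antigen of microglia and other myeloid cells. Each fraction held 3 libraries per vector, 12 in all. Whether the ACSA-2 and CD11b libraries came from the same mice was not stated. The ACSA-2 libraries of each vector came from separate animals. For the CD11b libraries, which the labels only number, no source used here says so, and p-values there measure a spread between samples that may be in part technical. Total counts on genes ran from 33937067 to 49217553 in the ACSA-2 libraries and from 36098295 to 53206974 in the CD11b libraries. In bulk RNA, fewer cells of a type and less RNA per cell cannot be told apart.

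The promoters of 3 genes are shown because these genes carry the clearest values below. Aldoc was the gene most in favour of the ACSA-2 fraction, Hk2 the one most in favour of the CD11b fraction, and Slc2a1 the one whose AAV-A2A and AAV-GFP libraries did not overlap in either fraction. Each sequence holds the 250 bases before a RefSeq start site (GRCm38.p6), read 5′ to 3′ on the gene's strand. The Aldoc window lies at chr11:78322823-78323072 on the plus strand, that of Hk2 at chr6:82774455-82774704 on the minus strand and that of Slc2a1 at chr4:119108495-119108744 on the plus strand. Capitals mark ACGTG, the core of hypoxia response elements and of many E-boxes, and TGACG, a half-site of the cyclic AMP response element, searched on both strands.
Aldoc: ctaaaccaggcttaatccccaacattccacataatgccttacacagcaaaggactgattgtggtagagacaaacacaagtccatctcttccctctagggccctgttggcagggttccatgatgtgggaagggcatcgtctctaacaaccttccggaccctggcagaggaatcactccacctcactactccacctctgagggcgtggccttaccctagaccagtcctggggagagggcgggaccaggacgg
Hk2: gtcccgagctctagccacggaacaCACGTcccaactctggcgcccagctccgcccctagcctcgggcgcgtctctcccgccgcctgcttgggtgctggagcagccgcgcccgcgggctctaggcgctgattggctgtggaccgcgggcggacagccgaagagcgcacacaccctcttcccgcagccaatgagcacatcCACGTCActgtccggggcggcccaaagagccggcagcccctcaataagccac
Slc2a1: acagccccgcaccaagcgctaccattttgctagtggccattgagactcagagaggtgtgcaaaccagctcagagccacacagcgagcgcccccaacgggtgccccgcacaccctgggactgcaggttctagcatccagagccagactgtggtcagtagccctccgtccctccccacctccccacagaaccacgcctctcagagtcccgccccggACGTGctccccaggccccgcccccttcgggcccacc

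Hk2 held ACGTG at 2 places and TGACG at 1, the last of which overlapped an ACGTG match. Slc2a1 held ACGTG once, beginning 36 bases before the start site, and Aldoc held neither motif in this window or in that of its other RefSeq start site. Over the 14 windows of the 10 genes, ACGTG was found in 6 and TGACG in 4, whereas 16.6% and 17.8% of all 32851 windows of this length held them. Both the Aldoc and the Slc2a1 window end inside the gene model whose position is given below. The Slc2a1 match lies across the first base of that model. All matches are letters in a window and were not tested as binding sites.

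The vector was detected in the libraries labelled with it. Adora2a was at 23.2 to 25.6 CPM (counts in 1000000 reads) in the ACSA-2 libraries with AAV-GFP and at 655 to 926 CPM in those with AAV-A2A, a 32.5-fold difference (edgeR quasi-likelihood test, adjusted p = 1.55e-05). Because the transferred coding sequence is that of the mouse gene, vector and endogenous RNA were counted together. In the CD11b libraries Adora2a was at 3.77 to 8.30 CPM with AAV-GFP and at 15.0 to 45.2 CPM with AAV-A2A. There edgeR did not call it (log2 fold change 2.20 ± 0.54, SE, adjusted p = 0.280), while DESeq2 gave an adjusted p of 0.0247. Summed over 11 astrocyte markers, the ACSA-2 libraries reached 11770 to 16998 CPM and the CD11b libraries 311 to 1236 CPM. The sum of 11 microglial markers was 417 to 783 CPM in the ACSA-2 and 9672 to 75906 CPM in the CD11b libraries. The CD11b libraries were not alike. The sum of 9 choroid plexus markers was 105811, 85732 and 57455 CPM in GFP-2328, GFP-2329 and A2A-2347 (libraries are named by vector and number), but 26.2 to 148 CPM in the other 3, so that 2 of 3 control and 1 of 3 AAV-A2A libraries were rich in RNA of the choroid plexus. The microglial sum was 9672 to 24762 CPM in these 3 libraries and 57892 to 75906 CPM in the others. The fold changes of the 10 genes that rest on the CD11b libraries are therefore given with and without these 3, which leaves 1 control and 2 AAV-A2A libraries in that fraction.

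**Figure D1:**
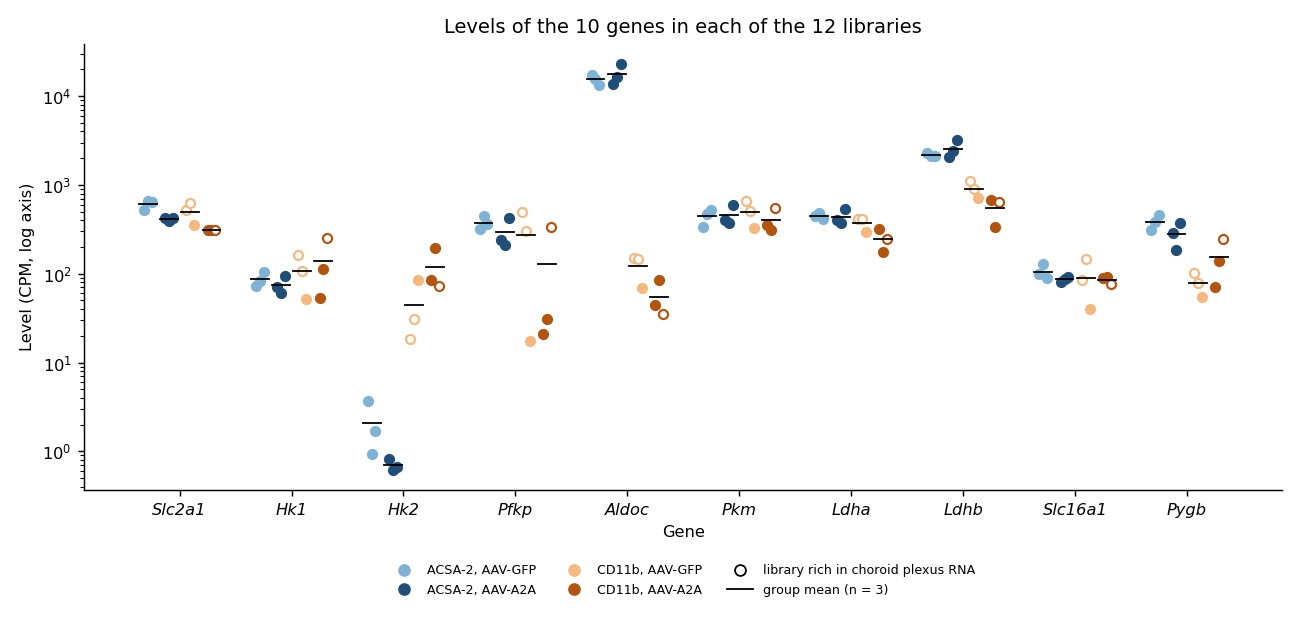
Level of each gene in CPM on a log axis, in the 3 libraries of each fraction and vector, with the group mean as a black line. Open points are the 3 CD11b libraries rich in choroid plexus RNA. Aldoc stands at 13496 CPM or more in all ACSA-2 libraries and at 150 CPM or less in all CD11b libraries, Hk2 is separated the other way, and Pfkp falls into 2 sets within the CD11b fraction.

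Levels between genes are compared here as CPM per kilobase of exon, averaged over the 6 libraries of a fraction. Exons were merged over all annotated transcripts of a gene, and comparisons between genes depend on that choice. For Hk1 the merged length was 8532 bases against 4278 in its longest transcript, and for Hk2 5969 against 5513. In the ACSA-2 fraction Aldoc came first with 5072 ± 1040 (SD, n = 6) and was the 3rd of 18585 genes. Ldhb followed with 1510 ± 262 and was the 17th. Slc2a1 (146 ± 33.4), Ldha (133 ± 17.9), Pkm (89.7 ± 19.3) and Pygb (69.3 ± 19.5) formed a middle range in which neighbours overlapped in their libraries. Pfkp (24.9 ± 7.21) and Slc16a1 (21.7 ± 3.89) overlapped as well, Hk1 was at 9.46 ± 1.87, and Hk2 was last with 0.235 ± 0.198. The 10 genes together took 1.83 to 2.67% of all counts of an ACSA-2 library, most of it from Aldoc, which alone took 1.36 to 2.14%.

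The order in the CD11b fraction began with Ldhb at 465 ± 167 CPM per kilobase (SD, n = 6), followed by Slc2a1 (116 ± 38.5), Ldha (93.3 ± 27.9) and Pkm (90.2 ± 27.9), which overlapped. The other 6 genes lay between 13.7 ± 10.5 for Hk2 and 27.2 ± 15.3 for Aldoc and overlapped throughout. The 10 genes took 0.167 to 0.433% of all counts of a CD11b library.

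The first comparison asked which of these genes differ between the fractions in AAV-GFP controls. Fraction, order of sorting and count table go together, so they cannot be told apart in any comparison between the fractions. The genes that separated belonged to different steps. Aldoc, Pygb and Ldhb were higher in the ACSA-2 fraction, and Hk2 was lower. These were 4 of 10 genes, against 26.7% of 18602 genes tested that were called at the same thresholds (adjusted p below 0.05 and a log2 fold change, FC, beyond 0.32 in either direction). The median log2 FC of the 10 genes was 0.28, against -0.11 over all genes tested. Without the 3 libraries rich in choroid plexus RNA the count was 6 of 10, against 25.3% of 20405 genes, with Pfkp (log2 FC 4.38) and Slc16a1 (log2 FC 1.36) added. The median log2 FC over all genes moved to 0.18 in that fit. It left a single CD11b control library, which was assumed to vary like the other groups.

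**Figure D2:**
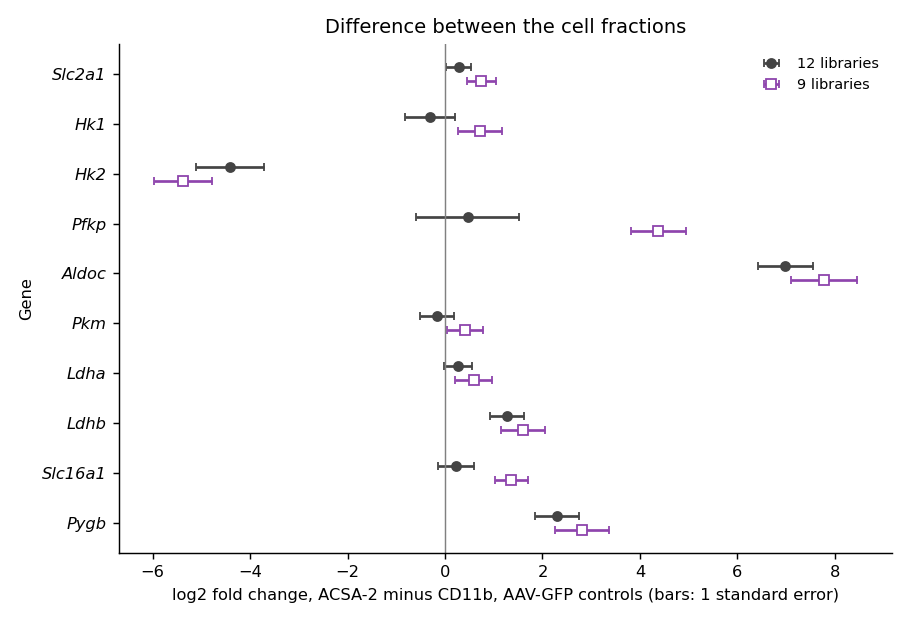
log2 fold change of each gene between the ACSA-2 and the CD11b fraction in AAV-GFP controls, positive where the ACSA-2 fraction is higher. Filled circles are the fit over 12 libraries and open squares the fit over the 9 libraries left without those rich in choroid plexus RNA, with bars of 1 standard error. Aldoc lies at 6.98 and 7.78 and Hk2 at -4.41 and -5.37, whereas Pfkp moves from 0.47 to 4.38.

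The second comparison asked what A2AR upregulation in astrocytes does to the same genes, in each fraction. None of the 10 was called in the ACSA-2 fraction, against 3.36% of 16451 genes tested, of which 524 were lower and 29 higher with AAV-A2A. Slc2a1 alone had an unadjusted p below 0.05, and DESeq2 called it (adjusted p = 0.0361, with 6.85% of 18448 genes called by that tool). Of the 10 genes, 3 had a positive and 7 a negative log2 FC, with a median of -0.21 against 0.02 over all genes tested. None was called in the CD11b fraction either, where edgeR called 0.0% of 16949 genes while 2704 had an unadjusted p below 0.05. There Aldoc alone had an unadjusted p below 0.05, limma-voom called none and DESeq2 called none of the 10 (2.46% of 18494 genes). The median log2 FC of the 10 genes in the CD11b fraction was -0.47, against -0.05 over all genes tested.

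**Figure D3:**
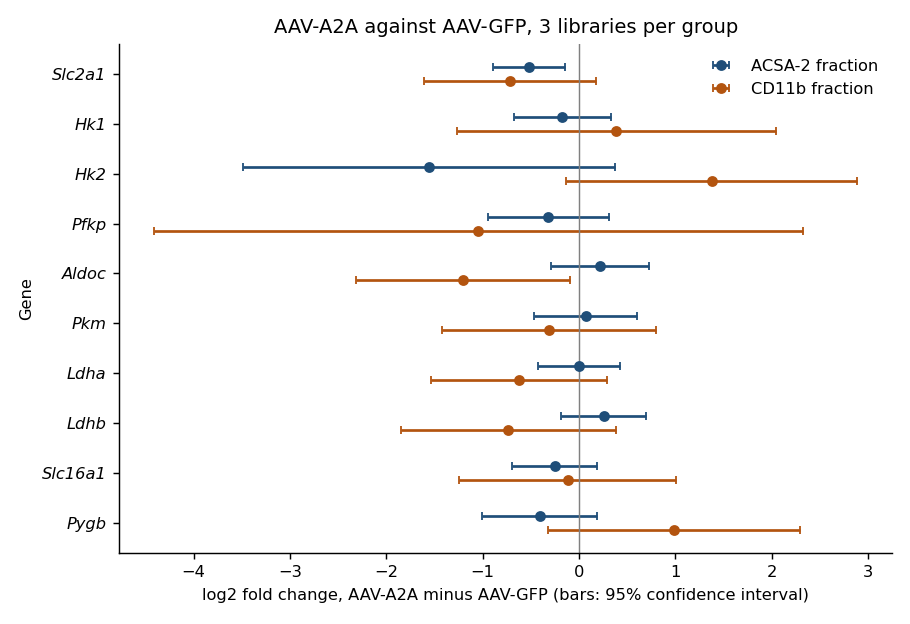
log2 fold change of AAV-A2A against AAV-GFP for each gene, in the ACSA-2 fraction (blue) and in the CD11b fraction (orange), with 95% confidence intervals from edgeR, 3 libraries per group. Slc2a1 lies below 0 in both fractions (-0.52 and -0.72), Hk2 lies on opposite sides (-1.56 and 1.38), and the widest interval, -4.41 to 2.32, is that of Pfkp in the CD11b fraction.

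Slc2a1 (ENSMUSG00000028645; GRCm38, chr4:119108711-119137983) encodes GLUT1, the glucose transporter of the blood-brain barrier and of astrocytes. In the ACSA-2 fraction it was at 525, 667 and 636 CPM with AAV-GFP and at 429, 389 and 429 CPM with AAV-A2A. All 3 AAV-A2A libraries were below all 3 controls, as was the case for 10.9% of the genes tested in that fraction. The log2 FC was -0.52 ± 0.17 (SE; edgeR adjusted p = 0.174), and it stayed between -0.64 and -0.45 when each library was left out in turn. In the CD11b fraction Slc2a1 was at 518, 627 and 357 CPM with AAV-GFP and at 314, 307 and 311 CPM with AAV-A2A. Here too the groups did not overlap, as for 10.9% of genes, and the log2 FC was -0.72 ± 0.38 (adjusted p = 0.385). Without the libraries rich in choroid plexus RNA it was -0.22 in the CD11b fraction. The fractions themselves did not differ detectably in Slc2a1 (log2 FC 0.28, 95% confidence interval -0.28 to 0.85, and 0.75 without the rich libraries, adjusted p = 0.0925).

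GLUT1 is also a defining transporter of brain endothelium, and endothelial RNA was measured beside it. The sum of 11 endothelial markers in the ACSA-2 fraction was 843 to 924 CPM with AAV-GFP and 600 to 1192 CPM with AAV-A2A, and 1 of the 11 was called lower and none higher. That gene, Flt1, a receptor for vascular endothelial growth factor, was at 160 to 197 CPM with AAV-GFP and at 46.0 to 77.5 CPM with AAV-A2A, whereas the tight junction gene Cldn5 was at 157 to 187 and 136 to 247 CPM. The endothelial sum of the CD11b libraries was 842 to 2368 CPM with AAV-GFP and 547 to 676 CPM with AAV-A2A, with no overlap. No endothelial marker was at 0 in all libraries of a fraction. The part of endothelial RNA in the values of Slc2a1 was not tested.

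Among the transporters of the Slc2a family summed here, without Slc2a2 and Slc2a9, Slc2a1 made up 71.0 to 83.9% per kilobase in the ACSA-2 fraction. By vector, Slc2a1 held 83.3 to 83.9% with AAV-GFP and 71.0 to 76.9% with AAV-A2A, and the difference in share was not tested. In the CD11b fraction it made up 14.1 to 17.7% in the 3 libraries poor in choroid plexus RNA and 25.6 to 50.4% in the rich ones. The leading transporter in the poor libraries was Slc2a5, which encodes the fructose transporter GLUT5, a known microglial gene, at 216 to 1660 CPM over all CD11b libraries against 0.496 to 6.46 CPM in the ACSA-2 fraction (log2 FC -7.51 ± 1.14, edgeR adjusted p = 0.000848, controls). After Slc2a1, the highest transporter in the ACSA-2 fraction was Slc2a8 (GLUT8), at 56.0 to 74.7 CPM with AAV-GFP and 78.8 to 119 CPM with AAV-A2A. Slc2a8 was not called there, and 1417 of 16451 genes had all AAV-A2A libraries above all controls.

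Hk1 (ENSMUSG00000037012; chr10:62268855-62379908), the housekeeping hexokinase of the brain, was at 72.5, 83.0 and 104 CPM in the ACSA-2 controls and at 70.2, 60.9 and 93.9 CPM with AAV-A2A. The groups overlapped, and the log2 FC was -0.17 ± 0.23 (edgeR adjusted p = 0.854). CD11b libraries held it at 161, 108 and 51.4 CPM with AAV-GFP and at 53.9, 113 and 251 CPM with AAV-A2A. The groups overlapped, although the highest value was that of an AAV-A2A library rich in choroid plexus RNA. The log2 FC of 0.39 ± 0.69 became -0.45 without that library, A2A-2347, and 0.68 without all 3 rich ones. The difference between fractions was -0.31 ± 0.51 in controls (adjusted p = 0.689), and 0.72 without the libraries rich in choroid plexus RNA.

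Hk2 (ENSMUSG00000000628; chr6:82725025-82774454) encodes the inducible hexokinase bound to mitochondria. In the ACSA-2 fraction it was near the lower end of the measured genes, with 3.67, 0.928 and 1.71 CPM in the controls and 0.811, 0.614 and 0.673 CPM with AAV-A2A. These levels rest on 26 to 144 counts per library. The AAV-A2A libraries were all below the controls, but the log2 FC of -1.56 ± 0.86 was not called (adjusted p = 0.519). CD11b libraries held Hk2 at 18.2, 31.1 and 85.6 CPM with AAV-GFP and at 85.3, 196 and 73.2 CPM with AAV-A2A, with a log2 FC of 1.38 ± 0.63 (adjusted p = 0.342). The 2 lowest controls were those rich in choroid plexus RNA, and without the rich libraries the log2 FC was 0.70.

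Between the fractions Hk2 was 21.3-fold lower in the ACSA-2 controls than in the CD11b controls (log2 FC -4.41 ± 0.70, edgeR adjusted p = 0.00106). The call held in all 12 fits that left out 1 library, and the log2 FC was -5.37 (adjusted p = 0.000108) without the rich libraries. The difference of the vector effect between the fractions was -2.98 ± 0.90 for Hk2 (edgeR adjusted p = 0.115), which was not called, while DESeq2 gave an adjusted p of 0.0293. That was the only one of the 10 genes called for this difference by DESeq2 and none was called by edgeR, against 9.02% of 18791 and 0.403% of 18602 genes. For the other 9 genes the difference lay between -1.42 for Pygb (adjusted p = 0.232) and 1.33 for Aldoc (adjusted p = 0.264). Without the rich libraries it lay between -1.45 for Slc16a1 and 0.70 for Ldhb, and was 0.27 for Aldoc.

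Hexokinase 3, which is found in myeloid cells, was the leading family member in the CD11b libraries poor in choroid plexus RNA. Hk3 was at 25.1 to 251 CPM in the CD11b fraction and at 0.179 to 15.1 CPM in the ACSA-2 fraction, and it was called lower in the ACSA-2 controls (log2 FC -5.12 ± 1.38, edgeR adjusted p = 0.0184). Of the summed levels of hexokinases per kilobase, Hk1 made up 59.5 to 91.7% in the ACSA-2 fraction. In those poor CD11b libraries Hk1 made up 9.37 to 11.5%, Hk2 21.2 to 28.7% and Hk3 59.5 to 68.5%.

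Pfkp (ENSMUSG00000021196; chr13:6579768-6648777) encodes the platelet type of phosphofructokinase. It was at 318, 446 and 360 CPM in the ACSA-2 controls and at 239, 210 and 429 CPM with AAV-A2A, with a log2 FC of -0.32 ± 0.28 (edgeR adjusted p = 0.741). The CD11b libraries held it at 495, 301 and 17.7 CPM with AAV-GFP and at 20.9, 30.6 and 332 CPM with AAV-A2A. The 3 high values were those of the libraries rich in choroid plexus RNA, and the 3 low values those of the others, whatever the vector. The log2 FC of -1.04 ± 1.41 in this fraction therefore turned to 0.52 without the rich libraries. Between the fractions it was 0.47 ± 1.06 (adjusted p = 0.774) with all libraries and 4.38 ± 0.57 (adjusted p = 0.000292) without them.

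The muscle type, Pfkm, was the leading phosphofructokinase of the ACSA-2 fraction and made up 67.1 to 81.2% of the family's level per kilobase. It was at 593 to 738 CPM with AAV-GFP and at 242 to 552 CPM with AAV-A2A. Pfkm was not called there, and 10.9% of genes had all AAV-A2A libraries below all controls. The liver type, Pfkl, was at 198 to 283 CPM in every CD11b library and made up 79.2 to 81.7% of the family in the libraries poor in choroid plexus RNA. Pfkm was higher in the ACSA-2 than in the CD11b controls (log2 FC 3.20 ± 0.75, edgeR adjusted p = 0.00905).

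Aldoc (ENSMUSG00000017390; chr11:78322968-78327781) encodes aldolase C, the brain aldolase and a common astrocyte marker. It was at 17198, 15745 and 13496 CPM in the ACSA-2 controls and at 13790, 16233 and 22832 CPM with AAV-A2A. The groups overlapped, and the log2 FC of 0.22 ± 0.23 (edgeR adjusted p = 0.793) became -0.03 without A2A-313. In the CD11b fraction it was at 150, 148 and 69.1 CPM with AAV-GFP and at 44.4, 85.9 and 35.6 CPM with AAV-A2A. The log2 FC there was -1.21 ± 0.47 (unadjusted p = 0.0370, adjusted p = 0.295) with overlapping groups, and -0.10 without the libraries rich in choroid plexus RNA. Beside it, the summed astrocyte markers of the CD11b libraries were 355 to 1236 CPM with AAV-GFP and 311 to 867 CPM with AAV-A2A, and the part of astrocyte RNA in this value was not tested.

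Aldoc showed the widest difference between fractions of the 10 genes. It was 126-fold higher in the ACSA-2 than in the CD11b controls (log2 FC 6.98 ± 0.57, edgeR adjusted p = 1.73e-05), and the call held in all 12 fits without 1 library. Without the rich libraries the log2 FC was 7.78 (adjusted p = 2.70e-05). Aldoa, the aldolase found in most tissues, was also higher in the ACSA-2 controls (log2 FC 1.14 ± 0.35, adjusted p = 0.0334), at 2375 to 3256 CPM against 577 to 1766 CPM over both vectors, and lost its call in 7 of 12 fits without 1 library.

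Pkm (ENSMUSG00000032294; chr9:59656368-59679375) encodes the muscle-type pyruvate kinase, whose M1 and M2 forms a count per gene does not separate. It was at 340, 468 and 520 CPM in the ACSA-2 controls and at 401, 370 and 593 CPM with AAV-A2A (log2 FC 0.07 ± 0.24, edgeR adjusted p = 0.960). CD11b libraries held it at 652, 514 and 326 CPM with AAV-GFP and at 353, 314 and 546 CPM with AAV-A2A, with a log2 FC of -0.31 ± 0.47 (adjusted p = 0.763). The fractions differed by -0.17 ± 0.35 in controls (adjusted p = 0.750). Without the libraries rich in choroid plexus RNA these log2 FC were 0.012 in the CD11b fraction and 0.42 between the fractions, neither of them called. Of the 50-base windows of its longest transcript, 34.4% also occur in transcripts of other genes, mainly pseudogene copies, so that its count of uniquely aligned reads is uncertain. Pklr, the liver and red cell pyruvate kinase, was at 0 to 0.408 CPM.

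Ldha (ENSMUSG00000063229; chr7:46841475-46855627) encodes the lactate dehydrogenase subunit that predominates in muscle, and Ldhb (ENSMUSG00000030246; chr6:142490249-142507957) the one that predominates in heart. Ldha was at 441, 482 and 418 CPM in the ACSA-2 controls and at 401, 372 and 536 CPM with AAV-A2A, a log2 FC of -0.0048 ± 0.19 (edgeR adjusted p = 0.997). The CD11b libraries held it at 408, 413 and 292 CPM with AAV-GFP and at 317, 177 and 245 CPM with AAV-A2A (log2 FC -0.62 ± 0.38, adjusted p = 0.451). The groups overlapped in both fractions. All ACSA-2 controls were above all CD11b controls, but the log2 FC of 0.27 ± 0.29 was not called (adjusted p = 0.516), and 23.9% of genes showed no overlap in that direction. Without the rich libraries the log2 FC of Ldha was -0.27 in the CD11b fraction and 0.59 between the fractions, again not called.

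Ldhb was at 2317, 2126 and 2119 CPM in the ACSA-2 controls and at 2085, 2405 and 3169 CPM with AAV-A2A (log2 FC 0.25 ± 0.20, edgeR adjusted p = 0.701). In the CD11b fraction it was at 1111, 902 and 707 CPM with AAV-GFP and at 679, 333 and 650 CPM with AAV-A2A. On this scale, set over 12 libraries, the groups did not overlap, whereas they did on the scale of the fraction alone, and the log2 FC of -0.73 ± 0.47 was not called (adjusted p = 0.467). Between the control fractions Ldhb was 2.41-fold higher in the ACSA-2 fraction (log2 FC 1.27 ± 0.34, adjusted p = 0.0188). This call held in 7 of the 12 fits that left out 1 library. It was lost without any 1 of the 3 ACSA-2 controls and without either GFP-2329 or GFP-2331 of the CD11b fraction, with a log2 FC from 1.12 to 1.44 over all 12. Without the rich libraries it was 1.60 and called (adjusted p = 0.0244), and in the CD11b fraction the log2 FC was -0.50. Shared 50-base windows made up 27.0% of the Ldhb and 16.6% of the Ldha transcript.

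Slc16a1 (ENSMUSG00000032902; chr3:104638668-104658462) encodes MCT1, a proton-linked carrier of lactate and pyruvate. It was at 98.4, 129 and 88.9 CPM in the ACSA-2 controls and at 80.6, 87.6 and 91.9 CPM with AAV-A2A (log2 FC -0.25 ± 0.19, edgeR adjusted p = 0.694). CD11b libraries held it at 84.4, 146 and 40.3 CPM with AAV-GFP and at 88.6, 91.0 and 77.4 CPM with AAV-A2A (log2 FC -0.12 ± 0.47, adjusted p = 0.916). The control library GFP-2331 was the lowest of all 12. The fractions differed by 0.22 ± 0.37 in controls (adjusted p = 0.686). Without the rich libraries the log2 FC was 1.14 in the CD11b fraction, not called, and 1.36 between the fractions, which was called (adjusted p = 0.0127).

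MCT1 made up 92.9 to 98.9% of the monocarboxylate transporters measured, per kilobase, in the ACSA-2 fraction. In the CD11b libraries poor in choroid plexus RNA it made up 41.9 to 60.4%, beside 29.1 to 38.2% for Slc16a3 (MCT4) and 9.93 to 19.9% for Slc16a7 (MCT2). Slc16a8 (MCT3), a transporter of the choroid plexus and retinal pigment epithelium, made up 56.0 to 80.5% in the rich ones and at most 0.229% in the poor ones. Slc16a3 and Slc16a7 were both lower in the ACSA-2 controls (log2 FC -4.66 and -4.45, edgeR adjusted p = 0.00252 and 0.0171). Bsg, which encodes basigin, the chaperone of MCT1 and MCT4, was at 1194 to 1662 CPM in the ACSA-2 fraction and at 593 to 3956 CPM in the CD11b fraction, highest in the 3 rich libraries.

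Pygb (ENSMUSG00000033059; chr2:150786735-150831758) encodes the brain glycogen phosphorylase, which frees glucose 1-phosphate from glycogen. It was at 312, 382 and 457 CPM in the ACSA-2 controls and at 290, 184 and 375 CPM with AAV-A2A (log2 FC -0.41 ± 0.27, edgeR adjusted p = 0.619). The CD11b libraries held it at 101, 78.3 and 54.0 CPM with AAV-GFP and at 71.3, 141 and 248 CPM with AAV-A2A (log2 FC 0.98 ± 0.55, adjusted p = 0.411), and the groups overlapped in both fractions. Between the control fractions Pygb was 4.93-fold higher in the ACSA-2 fraction (log2 FC 2.30 ± 0.45, adjusted p = 0.00378), a call that held in all 12 fits without 1 library. Without the rich libraries it was 2.80 (adjusted p = 0.00391), and the log2 FC in the CD11b fraction was 0.95.

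A listed set of 80 other genes of glucose, glycogen and lactate handling was read in the same fits. In the ACSA-2 fraction 68 were tested, none was called higher and 2 were called lower with AAV-A2A, or 2 of 68 against 3.36% of all genes. Their median log2 FC was -0.02, against 0.02 over all genes tested. Pfkfb3, whose enzyme makes the activator of phosphofructokinase, fell from 486, 403 and 371 CPM to 221, 143 and 129 CPM (log2 FC -1.33 ± 0.23, edgeR adjusted p = 0.0117). Phkb, a regulatory subunit of the phosphorylase kinase that activates glycogen phosphorylase, fell from 201, 191 and 178 CPM to 103, 88.4 and 63.9 CPM (log2 FC -1.13 ± 0.20, adjusted p = 0.0130). In both genes all AAV-A2A libraries were below all controls. The calls of Pfkfb3 and Phkb held in 3 and 4 of the 6 fits without 1 library, and in a fit of all 12 libraries, whose spread is wider, the adjusted p was 0.377 and 0.310.

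Of the 80 genes 72 were tested in the CD11b fraction and none was called by edgeR. An unadjusted p below 0.05 was seen for 7 of them, against 2704 of all 16949 genes tested. Where DESeq2 called 2.46% of 18494 genes, it called 2 of this set. These were Bpgm, which makes 2,3-bisphosphoglycerate and is abundant in red cells (log2 FC -2.06 by DESeq2, adjusted p = 0.0191), and Ppp1r3c, a subunit that targets a phosphatase to glycogen (log2 FC -1.51, adjusted p = 0.0416). Bpgm was at 168, 158 and 59.9 CPM with AAV-GFP and at 33.9, 34.5 and 27.7 CPM with AAV-A2A. The sum of 5 erythrocyte genes was 1016 to 5982 CPM with AAV-GFP and 56.7 to 253 CPM with AAV-A2A in the same libraries, and its part in the value of Bpgm was not tested.

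Between the control fractions 16 of 73 tested genes were higher and 11 lower in the ACSA-2 fraction, against 12.3% and 14.4% of all genes. Glycogen genes, of which 19 were tested, held 7 of the higher and 3 of the lower calls. Phkg1, the catalytic subunit of phosphorylase kinase, was at 117 to 136 CPM in the ACSA-2 controls and at 5.17 to 7.37 CPM in the CD11b controls, with a log2 FC of 4.24 ± 0.26 (edgeR adjusted p = 4.71e-06). Ppp1r3c was at 125 to 173 and 5.97 to 9.72 CPM (log2 FC 4.39 ± 0.31, adjusted p = 7.47e-06). Ppp1r3b, another glycogen-targeting subunit, went the other way, at 0 to 1.48 CPM against 30.9 to 49.4 CPM. Ugp2, which makes the sugar donor for glycogen synthesis, was at 434 to 471 and 70.2 to 96.9 CPM (log2 FC 2.45 ± 0.31, adjusted p = 0.000246). Of the 12 tested genes of pyruvate entry into mitochondria, 3 were higher and 1 lower, and of lower glycolysis 1 of 8 each way. Without the libraries rich in choroid plexus RNA 21 of 76 tested genes were higher and 11 lower. Calls added there included Gpi1, which encodes the isomerase of glucose 6-phosphate (log2 FC 1.47), the enolase Eno1 (log2 FC 1.47) and Slc2a8 (log2 FC -1.03). Phkg1, Ppp1r3c, Ppp1r3b and Ugp2 were called in the same directions. Pygm, another glycogen phosphorylase gene, had a log2 FC of 3.29 in that fit. It was at 95.1 to 106 CPM in the ACSA-2 controls and at 104, 63.0 and 10.3 CPM in GFP-2328, GFP-2329 and GFP-2331. Phkg1, Phkg2, Ppp1r3c and Ppp1r3b were chosen after their values were seen.

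Ratios between genes of one enzyme family were taken within each library, per kilobase and with a pseudocount of 0.5 CPM, and compared with exact permutation tests. All 12 libraries had less Ldha than Ldhb. The log2 ratio of Ldha to Ldhb was -3.49 ± 0.19 (SD, n = 6) in the ACSA-2 and -2.28 ± 0.20 in the CD11b fraction, a difference of -1.21 with an exact permutation p of 0.00216, two-sided, which is the smallest that 6 against 6 libraries allow (adjusted p = 0.00974 over 18 comparisons). The ratio was lower in every ACSA-2 library (-3.77 to -3.22) than in any CD11b library (-2.52 to -1.98). The ratio of Aldoc to Aldoa was 2.38 ± 0.20 in the ACSA-2 and -3.88 ± 0.77 in the CD11b fraction, so that the leading aldolase differed. Hk1 exceeded Hk2 by 5.06 ± 0.75 in the ACSA-2 fraction and by 0.23 ± 1.69 in the CD11b fraction. The ratio of Pfkp to Pfkm differed by -1.49. These 3 differences had the same exact p and adjusted p as Ldha to Ldhb. For Pfkp to Pfkm, however, the fractions almost touched, at -2.2088 in A2A-310 and -2.2086 in GFP-2331. Its difference was -0.52 without the 3 libraries rich in choroid plexus RNA, and it failed in 5 of 12 fits without 1 library.

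Pfkp to Pfkl (difference 2.39, exact permutation p = 0.0303, adjusted p = 0.109) and Pygb to Pygm (0.35, exact permutation p = 0.457, adjusted p = 0.484) did not pass the threshold. Without the 3 libraries rich in choroid plexus RNA the difference of Pfkp to Pfkl was 4.46, with no overlap, and its exact permutation p of 0.0119 was the smallest that 6 against 3 libraries allow (adjusted p = 0.0536). With 3 libraries against 3 the exact test cannot go below p = 0.1, so no vector effect on a ratio could pass. The smallest p of the vector comparisons was 0.1, for Aldoc to Aldoa in the ACSA-2 fraction, at 2.12 to 2.29 with AAV-GFP and 2.37 to 2.65 with AAV-A2A.

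**Figure D4:**
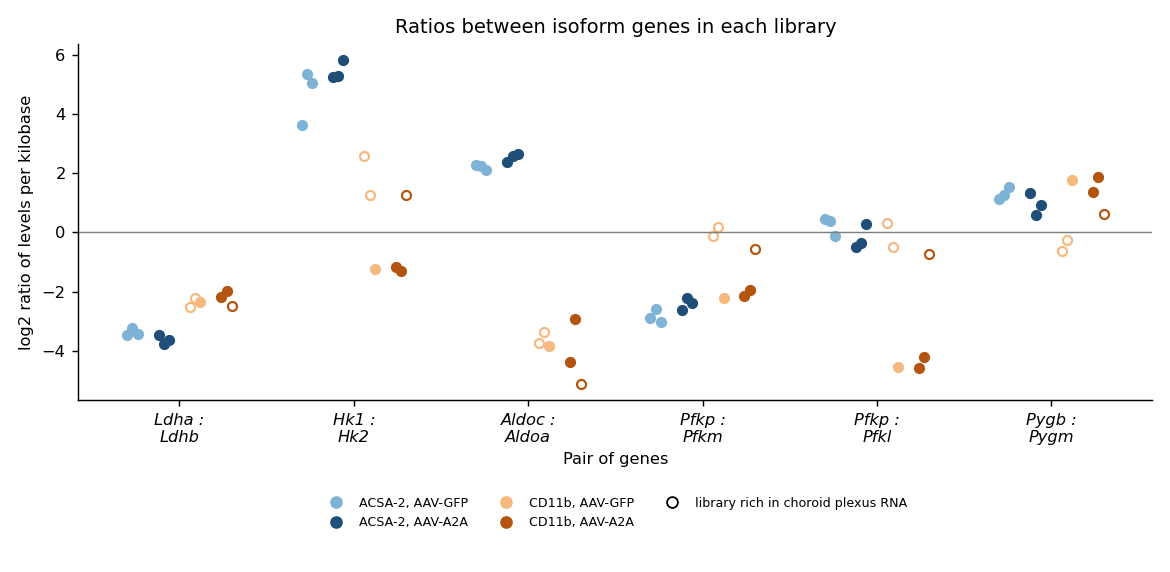
log2 ratio of the levels per kilobase of pairs of genes in each library, by fraction and vector. Open points are the 3 CD11b libraries rich in choroid plexus RNA. Ldha to Ldhb and Aldoc to Aldoa separate the fractions. Hk1 to Hk2, Pfkp to Pfkm, Pfkp to Pfkl and Pygb to Pygm fall into 2 sets within the CD11b fraction.

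Within the CD11b fraction several ratios followed the choroid plexus RNA. Hk1 to Hk2 was 1.26 to 2.59 in the 3 rich libraries and -1.31 to -1.17 in the others, and Pfkp to Pfkl was -0.71 to 0.31 and -4.58 to -4.19. Pygb to Pygm was -0.62 to 0.61 in the rich libraries and 1.37 to 1.86 in the others. Of the 10 genes, Pfkp and Pkm were higher in all 3 rich than in all 3 poor libraries and Hk2 was lower, against 17.9% and 15.7% of 18602 genes. Pfkp averaged 376 CPM in the rich and 23.1 CPM in the poor libraries, a 16.3-fold difference. Pkm was at 514 to 652 CPM and 314 to 353 CPM, and Hk2 at 18.2 to 73.2 CPM and 85.3 to 196 CPM. Aldoc, Ldha, Ldhb, Hk1, Slc16a1, Slc2a1 and Pygb overlapped between the rich and the poor libraries. These sets of libraries were defined from the data, so no test is given.

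**Figure D5:**
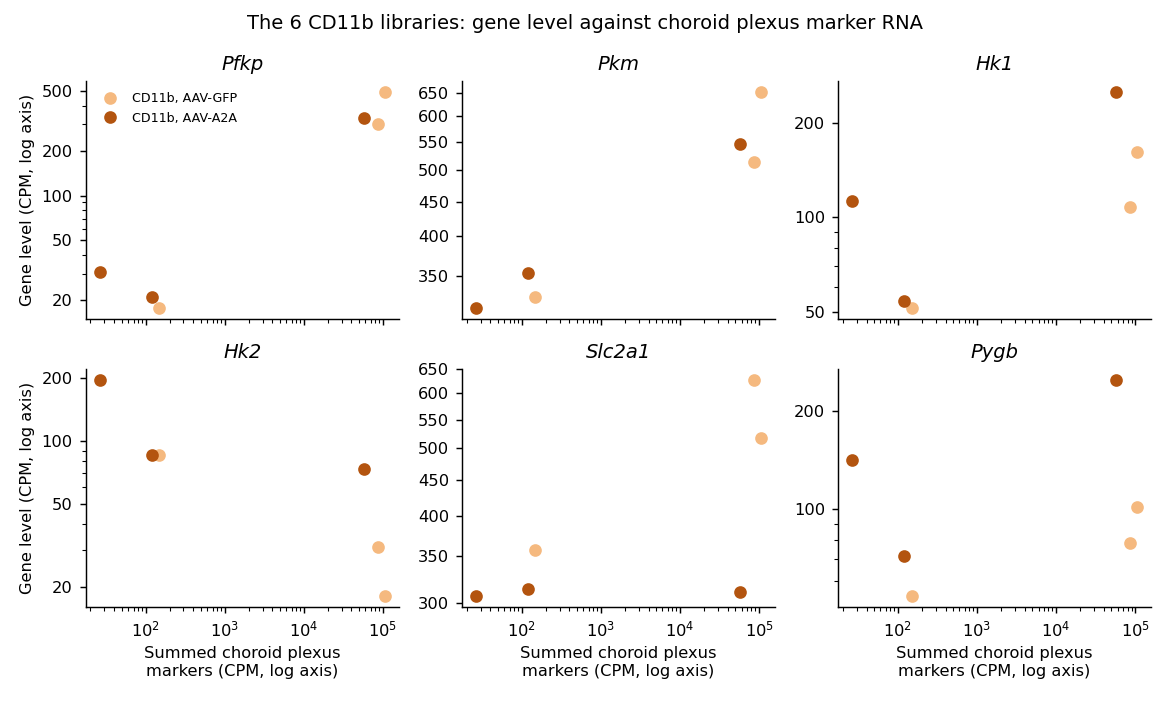
Level of 6 genes in the 6 CD11b libraries against the summed level of 9 choroid plexus markers, both in CPM on log axes, coloured by vector. The 3 libraries to the right, at 57455 CPM or more, hold the 3 highest values of Pfkp and of Pkm and the 3 lowest of Hk2, while Slc2a1, Hk1 and Pygb overlap.

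The genes whose pattern over the 12 libraries was most like each of the 10, after the mean of each fraction had been removed, were listed by Pearson's r of log2 CPM, as a description. The 12 points share depth, fraction and the choroid plexus RNA described above. Pfkp was most like Sfrp5 (r = 0.99), Acss2 (0.99) and Me1 (0.99). Hk1 was most like Fads1 (0.99), Pygb like Calcoco1 (0.98), and Pkm like Gm1840 (0.98). Hk2 was most like Slc39a3 (0.96), Kdm2b (0.96) and the microglial integrin Itgam (0.95), which encodes CD11b. Ldhb was most like Pon2 (0.98) and Uqcrc1 (0.98), Ldha like Mocs2 (0.96) and Ppa2 (0.95), and Aldoc like Scrg1 (0.95) and Cpe (0.94). Slc2a1 was most like Fbxl16 (0.95), Rasd1 (0.94) and Plcb1 (0.94), and Slc16a1 like AU019990 (0.96), with the next gene at 0.89. Among the 10 themselves the closest pair was Ldha and Ldhb (r = 0.90), followed by Hk1 and Pygb (0.86) and by Pfkp and Pkm (0.86), and the most opposed was Hk2 and Ldhb (-0.76).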

How the data were processed

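Poly(A) RNA of 12 sorted hippocampal fractions was amplified as full-length cDNA and sequenced single-end. The authors trimmed the reads with cutadapt 1.10, aligned them to mm10 with STAR 2.5.3, counted reads per Ensembl gene with HTSeq 0.6.1p1 and deposited raw counts, 1 table per fraction, without normalization. The strand setting is not given in the sources used here, and reads carry no molecular identifiers, so duplicates are included and genes overlapping on either strand are uncertain. Libraries were assigned from labels and column names. No 2 libraries of a group agreed within sampling noise. Columns without a name held no values.

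Each fraction was fitted with edgeR 4.0.16 (TMM scaling, filterByExpr, robust quasi-likelihood test) in R 4.3.3, and the fractions were compared in a fit of all 12 libraries over the 25442 shared genes. Genes were called at a Benjamini-Hochberg adjusted p below 0.05 over all tested genes and an absolute log2 FC above 0.32. CPM in the text use TMM over the 12 libraries, so overlap is judged on that scale unless a fraction's own count is given. The SE of a log2 FC and its interval (95%) follow from the edgeR fit. Alternatives were DESeq2 1.42.0, limma-voom (limma 3.58.1), other scalings and filters, and each library left out. The fits were tested on simulated data. Exon lengths and positions are from GENCODE vM21 (GRCm38), and all 190 listed genes matched. The 10 genes, the 80 further genes and the marker lists were chosen with earlier results of these data known. Named were the 10 genes, further genes called in a vector comparison, the most abundant further gene of each role in each fraction, and the 3 genes most like each of the 10. Other genes were named after their values were seen. Some genes are not reported here.

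Of the lists of other cells, the log2 FC medians with AAV-A2A in the ACSA-2 and CD11b fractions were 0.05 and -0.33 for astrocytes, -0.05 and 0.43 for microglia, -0.45 and -0.38 for endothelium, -0.33 and 0.16 for mural cells, 0.43 and -0.26 for oligodendrocytes, -1.28 and 0.50 for their precursors, -0.07 and -2.30 for neurons, 0.05 and -2.13 for ependyma, 0.24 and -1.71 for choroid plexus, -0.17 and -4.05 for erythrocytes and 0.22 and 0.65 for border macrophages. Neutrophil and monocyte genes were not tested in the ACSA-2 fraction and had -0.0055 in the CD11b fraction.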

Additional observations from a re-analysis of the deposited data

Results flagged for a closer look

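The vector effect on Hk2 differed in direction between the fractions. The log2 FC of AAV-A2A against AAV-GFP was -1.56 in the ACSA-2 fraction and 1.38 in the CD11b fraction, and the difference of the 2 effects was -2.98 ± 0.90 (SE; edgeR interaction term, unadjusted p = 0.00626, adjusted p = 0.115). DESeq2 passed the threshold for this difference (adjusted p = 0.0293), as did edgeR in 1 of 12 fits without 1 library, that without GFP-2331 of the CD11b fraction. Without the 3 CD11b libraries rich in choroid plexus RNA the difference was -2.31 (adjusted p = 0.396). In the ACSA-2 fraction the value rests on 26 to 144 counts per library.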

How the results depend on the processing

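No paired analysis was made. The library numbers of the compared groups do not overlap, and whether the 2 fractions came from the same mice was not stated. A single library was decisive for several calls, and with 3 libraries per group edgeR called no gene in the CD11b fraction. Library totals alone moved the median log2 FC over all genes from -0.11 to -0.23 between the fractions and from -0.05 to -0.17 in the CD11b fraction. DESeq2 raised the number called among the 10 genes from 0 to 1 in the ACSA-2 fraction and for the difference of the vector effects. Among the 80 further genes the number went from 2 to 3 in the ACSA-2 fraction and from 0 to 2 in the CD11b fraction. Between the fractions it went from 27 to 33, and for the difference of the vector effects from 0 to 5. Over all genes DESeq2 called, in the same order, 6.85%, 2.46%, 6760 of 19757 and 9.02%. With all 12 libraries in 1 fit, 0 further genes were called in the ACSA-2 fraction instead of 2.

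The exclusion of the 3 CD11b libraries rich in choroid plexus RNA was chosen after seeing the data. Without them the log2 FC between fractions was 0.21 for Bsg, 0.028 for G6pc3, 0.31 for Gaa, 0.72 for Hk1 and 0.42 for Pkm, all turned in sign. In the CD11b fraction it was 0.52 for Pfkp, 0.012 for Pkm and 1.14 for Slc16a1, and the difference of the vector effects was -0.90 for Pfkp, -0.0027 for Pkm and -0.36 for Slc2a1, again turned. The log2 ratios in the CD11b fraction turned to 0.18 for Aldoc to Aldoa, 0.0024 for Hk1 to Hk2, 0.15 for Pfkp to Pfkl, 0.15 for Pfkp to Pfkm and -0.15 for Pygb to Pygm, and Pygb to Pygm between fractions to -0.53. With 6 against 3 libraries no ratio passed. The differences of 6.08 for Aldoc to Aldoa, 6.30 for Hk1 to Hk2, -1.32 for Ldha to Ldhb and 4.46 for Pfkp to Pfkl had the smallest exact p this size allows (0.0119, adjusted p = 0.0536), so their lost calls do not show smaller differences. Pfkp to Pfkm fell to -0.52 (exact p = 0.0357, adjusted p = 0.129).

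Near 0, the sign also turned for Gaa between fractions (0.0054 with limma-voom, 0.00059 with at least 10 counts in every library), Ldha in the ACSA-2 fraction (0.0034, at least 10 counts), Slc16a1 (0.087 in the CD11b fraction with limma-voom, 0.039 for the difference of the vector effects with library totals) and Hk1 to Hk2 in the ACSA-2 fraction (-0.016 with a pseudocount of 10 CPM).

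Leaving out each library, values crossed 0 in the ACSA-2 fraction for Aldoc (-0.032 to 0.38), Ldha (-0.20 to 0.10) and Pkm (-0.19 to 0.20), and in the CD11b fraction for Hk1 (-0.45 to 0.84) and Slc16a1 (-0.49 to 0.41). Between fractions they did so for G6pc3 (-0.13 to 0.071), Gaa (-0.16 to 0.14), Hk1 (-0.64 to 0.11), Ldhd (-0.17 to 0.73), Pfkp (-0.089 to 1.23), Pkm (-0.41 to 0.076), Slc16a1 (-0.13 to 0.76) and Slc2a8 (-0.55 to 0.15). For the difference of the vector effects this held for Hk1 (-1.01 to 0.16), Pfkp (-0.047 to 3.04), Slc16a1 (-0.75 to 0.14) and Slc2a1 (-0.062 to 0.33). The ratio between fractions ranged from 1.95 to 2.93 for Pfkp to Pfkl, which passed without GFP-2328, and from -1.71 to -1.23 for Pfkp to Pfkm, which failed in 5 of 12 fits. The number called was 0 to 1 of the 10 genes for the difference of the vector effects, and 0 to 3 (ACSA-2) and 17 to 31 (between fractions, with 27 in the full fit) of the further genes. The cause was not tested.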
